A study of Mus musculus with 126 samples.

Results

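The 8 genes followed here encode tight junction proteins other than claudins: the membrane proteins occludin (Ocln), tricellulin (Marveld2), MARVEL domain-containing 3 (Marveld3), junctional adhesion molecule A (F11r) and angulin-1 (Lsr), and the scaffolds ZO-1 (Tjp1), ZO-3 (Tjp3) and cingulin (Cgn). They were chosen by symbol, and all 8 were found among the 48490 gene identifiers of the deposited table. The study took 126 single cells from the endolymphatic sac, the part of the mouse inner ear that takes part in the handling of endolymph, at E14.5, an age counted in days of embryonic life. The labels assign 33 cells to wild-type embryos and 93 cells to Sox9Y440X/+ embryos, which carry 1 Y440X allele of the transcription factor gene Sox9, called mutant below. The members were read in the 113 cells with Epcam, an epithelial adhesion gene, at 1 FPKM or more, of which 32 were wild type and 81 mutant.

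Within each genotype these cells were divided by 2 further readings of the rule. The first was whether Aldh1a1 or Aldh1a3, which encode retinaldehyde dehydrogenases, was at 1 FPKM or more and the higher of the pair. Among wild-type cells 14 were Aldh1a1-dominant, 16 were Aldh1a3-dominant and 2 were neither. Among mutant cells the numbers were 41, 35 and 5. The second reading was Foxi1, a forkhead factor needed for the mitochondria-rich, ion-transporting cells of the sac, at 10 FPKM or more, which held in 5 wild-type and 11 mutant cells. The thresholds fell in gaps of the data. The lowest Epcam value inside was 53.1 FPKM and all 13 cells outside were listed at 0, and the lowest Foxi1 value inside was 28.2 FPKM against 0.989 FPKM for the highest outside. Epcam, which the rule used, aside, the keratin genes Krt8 and Krt18 were detected in all 113 cells, and in 3 and 2 of the 13 Epcam-negative cells. Of mitochondria-rich cell markers other than Foxi1, the anion exchanger gene Slc26a4 was detected in 9 of the 16 Foxi1-high cells and 0 of the other 97. The proton pump subunit gene Atp6v1b1 was detected in 10 and 0, and Rhcg was at 0 in both groups.

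Tight junctions seal the space between neighbouring epithelial cells. Claudins form the paracellular barrier and its ion-selective pores, while the proteins of the MARVEL family, occludin, tricellulin and MarvelD3, run in or beside the same strands. Where 3 cells meet, angulin-1 recruits tricellulin to close the corner, and loss of tricellulin or of the angulin ILDR1 causes deafness in humans and mice. JAM-A is an immunoglobulin-like adhesion protein, and the ZO proteins and cingulin form the cytoplasmic plaque that ties the strands to actin. In the inner ear such barriers keep endolymph apart from perilymph and from the tissue around it.

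The labels name no animal, litter or plate, so each genotype counts as 1 sample, no test was made and the SDs below are spreads over cells. Genotype could not be told apart from 2 other divisions. All 93 mutant cells and 1 wild-type cell have titles with the prefix P9 and the other 32 wild-type cells have P10, and the labels define neither prefix. A Y-linked transcript was detected in 32 of 33 wild-type cells but 4 of 93 mutant cells, and Xist in 0 and 81. The 4 Y-positive cells under the mutant label had Xist at 0. FPKM (fragment number divided by transcript length and by the mapped fragments of the cell) carries no read number, so depth is unknown. The genes listed above 0 stood in for it, with medians of 5244 in wild-type epithelial cells (2189 to 6493) and 4453 in mutant ones (2035 to 9358). Summed FPKM per cell ran from 60902 to 1.64e+07 with a median of 462792, so cells do not share 1 scale. Levels and detection below use FPKM as listed, and rescaling each cell to the same total was an alternative only. Sox9 itself averaged 3.26 ± 1.57 (SD, n = 32 cells) in wild-type and 3.33 ± 1.34 (SD, n = 81 cells) in mutant cells as log2(FPKM + 1). Gene-level FPKM cannot separate the 2 alleles.

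Promoter sequences from RefSeq (GRCm38.p6, the same assembly as the table's mm10) were available for 7 of the 8 members, in 10 windows. The 4 below show the 250 bases before the start of Lsr and F11r, the members highest in level, of Marveld2, which led in Foxi1-high cells with Marveld3, and of Cgn, for its grainyhead-like motif. They are read 5′ to 3′ on the gene's strand, F11r at chr1:171437311-171437560 on the plus strand, Lsr at chr7:30973470-30973719, Marveld2 at chr13:100616972-100617221 and Cgn at chr3:94786483-94786732, the last 3 on the minus strand. Capitals mark matches on either strand to 6 short motifs, AACNGGTT of grainyhead-like factors, ACAATG of SOX factors, GTAAACA of forkhead factors, CACCTG of SNAI and ZEB repressors, the GC box GGGCGG and TATAAA. No 2 matches in these windows share a base.
F11r: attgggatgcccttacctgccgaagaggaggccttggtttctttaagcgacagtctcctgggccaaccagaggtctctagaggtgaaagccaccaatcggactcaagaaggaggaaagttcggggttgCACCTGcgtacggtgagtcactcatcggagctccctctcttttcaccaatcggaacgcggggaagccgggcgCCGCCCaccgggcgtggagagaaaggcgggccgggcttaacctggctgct
Lsr: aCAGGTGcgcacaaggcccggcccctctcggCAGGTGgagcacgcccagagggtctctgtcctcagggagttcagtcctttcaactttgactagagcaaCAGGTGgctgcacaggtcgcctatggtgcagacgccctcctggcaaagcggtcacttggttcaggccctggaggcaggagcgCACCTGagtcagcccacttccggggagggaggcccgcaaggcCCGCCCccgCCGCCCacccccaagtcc
Marveld2: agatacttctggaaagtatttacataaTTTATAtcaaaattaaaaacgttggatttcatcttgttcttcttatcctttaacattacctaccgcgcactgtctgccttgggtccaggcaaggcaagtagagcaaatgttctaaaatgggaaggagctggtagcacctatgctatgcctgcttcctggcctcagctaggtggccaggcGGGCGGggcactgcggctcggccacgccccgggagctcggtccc
Cgn: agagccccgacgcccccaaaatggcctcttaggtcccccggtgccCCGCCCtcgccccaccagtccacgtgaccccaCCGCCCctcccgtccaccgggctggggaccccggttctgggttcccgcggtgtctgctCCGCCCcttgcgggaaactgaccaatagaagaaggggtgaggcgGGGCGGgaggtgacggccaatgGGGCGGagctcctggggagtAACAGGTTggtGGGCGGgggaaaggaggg
The grainyhead-like motif, found in 1.79% of 32851 promoter windows of this length, was present in Cgn alone among the 7 members, beginning 29 bases before the start. The CACCTG letters occurred in 17.2% of all windows and in 5 of the 10 member windows. These belonged to 4 of 7 members, F11r, Lsr, Ocln and Tjp3, and the Lsr window held 4 matches. The GC box occurred in 32.7% of all windows and in 8 of the 10 member windows. These belonged to 6 of 7 members, all but Tjp3, with 6 matches in Cgn. The GC content of member windows ran from 43.2% (Tjp3) to 70.4% (Cgn), beside a median of 52.4% over all windows. TATAAA occurred in 12.4% of all windows and in 2 of the 10 member windows, both of Marveld2. The SOX letters (10.7% of all windows) and the forkhead letters (3.17%) were in no member window. Such matches are descriptions of letters, not binding sites.

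Lsr and F11r were the members with the highest mean levels and the most cells reading them, and the scaffold genes had the lowest means. Over all 113 cells the mean log2(FPKM + 1), a scale that is per transcript length, was 5.68 ± 2.52 for Lsr (SD, n = 113 cells) and 4.89 ± 2.34 for F11r. It was 3.08 ± 2.87 for Ocln, 1.86 ± 2.48 for Marveld2 and 1.5 ± 2.33 for Marveld3. Tjp1 (1.32 ± 1.73), Tjp3 (1.21 ± 2.23) and Cgn (1.21 ± 1.75) came last. Within single cells the top of this order was held by most cells, since Lsr exceeded F11r in 74 of 113, F11r exceeded Ocln in 75 and Ocln exceeded Marveld2 in 61. No neighbours in this order differed by more than the SD over cells, and below Ocln the order was mixed within cells as well. Marveld2 exceeded Marveld3 in 34 cells and was below it in 29, and Tjp1 exceeded Marveld3 in 48 cells although its mean was lower. Some of those 48 Tjp1 values were below 1 FPKM, since Tjp1 reached that level in only 46 of the 113 cells.

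**Figure D1:**
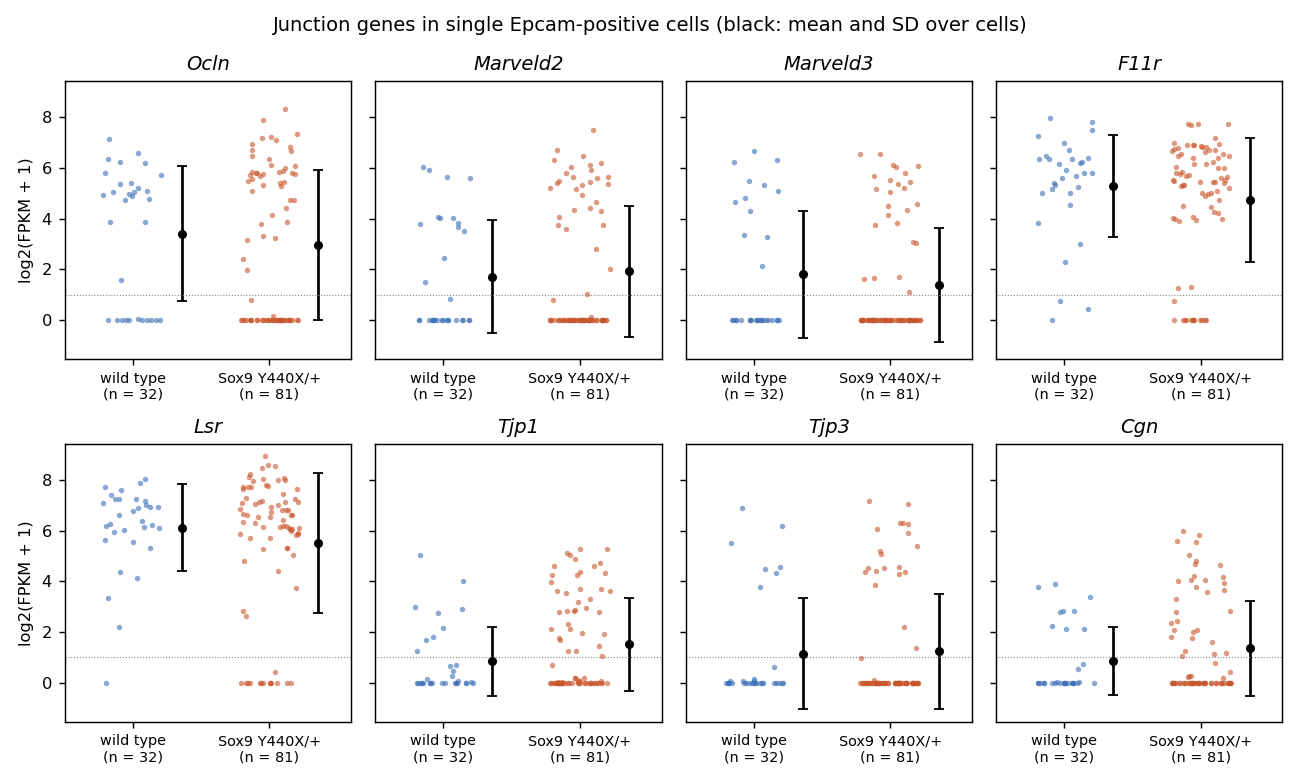
Each panel plots log2(FPKM + 1) of 1 junction gene in every Epcam-positive cell, 32 wild type and 81 mutant, with the mean and SD over cells in black and a dotted line at 1 FPKM. Lsr and F11r sit near 5 to 8 in most cells of both genotypes, while each of the other genes has many cells at 0, and Tjp1 and Cgn also have cells at low values around the line.

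Lsr, whose product marks the tricellular corners, ranged from 0 to 262 FPKM in wild-type cells with a median of 89.2, and from 0 to 486 FPKM in mutant cells with a median of 84.2. The ranges overlapped almost wholly, and the genotypes differed mainly in how many cells were without it. Detection, a value of 1 FPKM or more, held in 31 of the 32 cells of the wild type (96.9%, exact binomial 95% interval 83.8 to 99.9) and 67 of the 81 of the mutant (82.7%, 72.7 to 90.2). Here and below, such intervals reflect counting error alone and leave out any variation among animals. In cells that detected Lsr the median was 96.7 FPKM in wild type and 105 FPKM in mutant. The gene lies at chromosome 7, positions 30957770 to 30973464 of mm10 on the minus strand, and the antisense gene Gm4673 overlaps it. Gm4673 was detected in 86 epithelial cells, all of which detected Lsr, and since the strand setting of the counting is not given in the sources used here, reads of this pair cannot be told apart.

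F11r (chromosome 1, positions 171437535 to 171464603, plus strand) ranged from 0 to 246 FPKM with a median of 54.5 in wild-type cells, and from 0 to 213 FPKM with a median of 44.2 in mutant cells. Detection was 29 of 32 (90.6%, interval 75 to 98) and 67 of 81 (82.7%, 72.7 to 90.2). Its levels thus overlapped between genotypes as those of Lsr did. Most cells carried both genes. Lsr and F11r were detected together in 84 of 113 cells, and only 3 cells, all mutant, detected neither.

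Ocln (chromosome 13, positions 100496507 to 100552718, minus strand) stood between these 2 genes and the rest. It ranged from 0 to 139 FPKM with a median of 27.6 in wild-type cells, and from 0 to 317 FPKM with a median of 7.91 in mutant cells. Detection was 21 of 32 (65.6%, interval 46.8 to 81.4) against 43 of 81 (53.1%, 41.7 to 64.3). Among the cells that detected Ocln the order of the medians was the opposite, at 53.7 FPKM in mutant and 33.4 FPKM in wild type. The trio of Lsr, F11r and Ocln was complete in 20 of 32 (62.5%, interval 43.7 to 78.9) and 35 of 81 cells (43.2%, 32.2 to 54.7).

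Marveld2, the tricellulin gene, lies at positions 100595957 to 100616971 of the same chromosome and strand as Ocln. It had a median of 0 in both genotypes, with a highest value of 64.4 FPKM in wild-type and 180 FPKM in mutant cells. Detection was 13 of 32 (40.6%, interval 23.7 to 59.4) against 31 of 81 (38.3%, 27.7 to 49.7). The cells that read it held more in the mutant, with a median of 40.3 FPKM against 15.1 FPKM. This order was not particular to Marveld2. Among detecting cells every member but F11r (52.9 FPKM in mutant, 58.9 FPKM in wild type) had the higher median in the mutant. All 13 wild-type cells with Marveld2 also had Lsr, the gene of its recruiter, as did 24 of the 31 mutant cells. Of the 7 mutant cells with Marveld2 and no Lsr, 6 had no reading of the related angulin gene Ildr1 either.

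Marveld3 (chromosome 8, positions 109947914 to 109962203, minus strand) also had a median of 0 in both genotypes and reached 101 FPKM in wild-type and 93.1 FPKM in mutant cells. Detection was 12 of 32 (37.5%, interval 21.1 to 56.3) and 25 of 81 (30.9%, 21.1 to 42.1), so a minority of cells of either genotype read it. At least 1 of the 3 MARVEL genes was detected in 95 of 113 cells, and all 3 in 12.

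Of the scaffolds, Tjp1 (chromosome 7, positions 65296165 to 65527781, minus strand) had a median of 0.00963 FPKM in wild-type and 0.123 FPKM in mutant cells, both below detection. Its highest values were 31.9 FPKM and 38.2 FPKM. Detection was 9 of 32 (28.1%, interval 13.7 to 46.7) in the former against 37 of 81 (45.7%, 34.6 to 57.1). Many values of the ZO-1 gene were near this limit, and the share depended on it. Counting any value above 0 FPKM the wild-type share was 50% and the mutant share 58%, and at 5 FPKM the mutant share was 32.1%. Cgn (chromosome 3, positions 94760069 to 94786492, minus strand), the gene of the ZO-binding protein cingulin, had medians of 0 and reached 13.9 FPKM in wild-type and 62.8 FPKM in mutant cells. Detection was 9 of 32 (28.1%, interval 13.7 to 46.7) and 32 of 81 (39.5%, 28.8 to 51). Tjp3 (chromosome 10, positions 81273207 to 81291267, minus strand) had medians of 0 and reached 118 FPKM and 142 FPKM. It was detected in 7 of 32 (21.9%, interval 9.28 to 39.97) and 20 of 81 cells (24.7%, 15.8 to 35.5). Tjp3 overlaps Apba3 on the opposite strand, and Apba3 was detected in 5 of the 27 cells with Tjp3.

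At least 1 of the 3 scaffold members was detected in 75 of 113 cells and all 3 in 5. In a library made from 1 cell a value of 0 can be a transcript that was not captured, so a gene below 1 FPKM is not detected rather than absent. The number of members per cell went with the number of listed genes. The Pearson correlation over cells was 0.29 in the 32 wild-type cells (Spearman 0.22) and 0.62 in the 81 mutant cells (Spearman 0.57), as a description in which unknown depth can enter both measures. In mutant cells above the median of listed genes F11r was detected in 97.5% and Tjp1 in 57.5%, against 68.3% and 34.1% of the cells at or below it. Other members rose less there, as Lsr did (85% against 80.5%), and Tjp3 was lower (22.5% against 26.8%). In wild-type cells above the median Tjp1 (25% against 31.25%) and Tjp3 (12.5% against 31.25%) were lower. Marveld3 was equal there and the rest were higher.

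**Figure D2:**
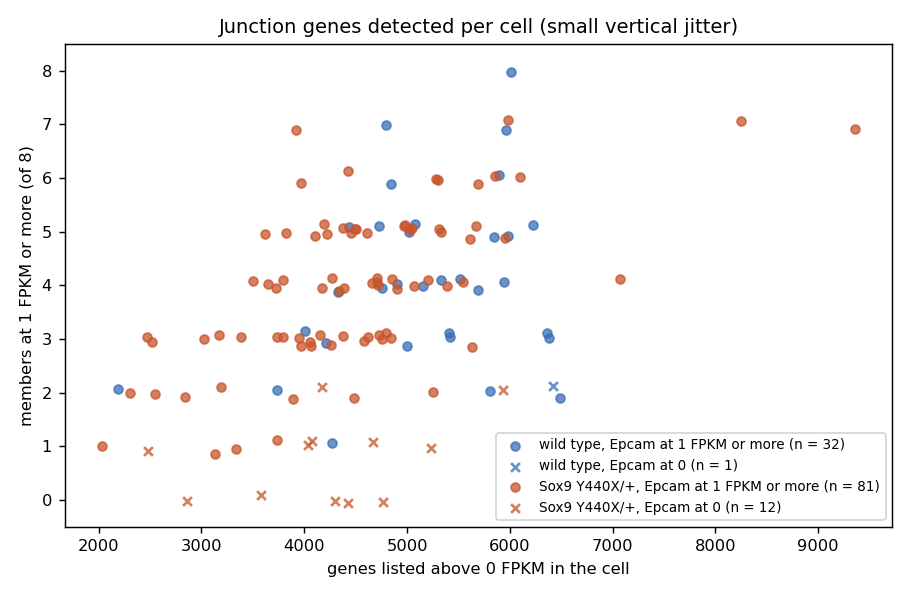
The number of the 8 junction genes at 1 FPKM or more in each cell (vertical axis) is plotted against its genes listed above 0 FPKM (horizontal axis), with circles for Epcam-positive cells and crosses for the 13 Epcam-negative cells. Epcam-positive cells of both genotypes have a median of 4 genes, and no Epcam-negative cell has more than 2.

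The 13 cells with Epcam at 0 were read for the members as well. They were 1 wild-type and 12 mutant cells, and 10 of them had at least 3 of 8 mesenchymal markers, against 4 of the 113 epithelial cells. They held a median of 1 member per cell (0 to 2) while epithelial cells held 4 (1 to 8). Ocln, Marveld3, Tjp3 and Cgn were detected in 0 of 13, which allows a share of up to 23.1% when 3 counts are taken as the limit. Lsr was detected in 3, F11r in 2 and Marveld2 in 1. Of these, both cells with F11r and 1 of the 3 with Lsr were among the 3 cells with no mesenchymal marker, so the 10 cells with 3 or more such markers held F11r in 0 and Lsr in 2. Tjp1 was detected in 5 of 13, a share in the range of that of epithelial cells, and ZO-1 is also known from junctions of cells that are not epithelial. The median of listed genes was 4297 in these cells and 4706 in epithelial cells.

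The first comparison asked how the members' levels differed between genotypes. Tjp1 and Cgn were higher in mutant cells and Lsr and F11r lower, but no member passed a difference of 1 on the log2 scale. Mean log2(FPKM + 1) of Tjp1 was 0.84 ± 1.36 (SD, n = 32 cells) in wild-type and 1.52 ± 1.83 (SD, n = 81 cells) in mutant cells, and that of Cgn was 0.86 ± 1.35 and 1.35 ± 1.88. For Lsr the means were 6.11 ± 1.72 and 5.50 ± 2.76, and for F11r 5.30 ± 2.02 and 4.73 ± 2.45. In all 4 genes the cells of the genotypes overlapped broadly.

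Each difference was set against the median over all compared genes, those with a detected share of at least 25% on average over the 2 groups. For genotype this median was -0.29 (mutant minus wild type) over 6198 genes. After its subtraction the relative difference, in log2, was 0.96 for Tjp1, 0.78 for Cgn, 0.50 for Marveld2 and 0.37 for Tjp3. It was -0.14 for Marveld3, -0.16 for Ocln, -0.28 for F11r and -0.32 for Lsr. A gene is called here when its relative difference reaches 1 in either direction, which held for 10.4% of the compared genes (4.08% higher, 6.29% lower). Of the 8 members 7 met the detection filter, Tjp3 being the exception, and 0 were called. The median over the 8 members was 0.12, where that of all compared genes is 0 by construction. Low genes that differ little lie above 0 on this scale, because the median of all genes was below 0. Tjp1 stood near the limit and was called in 4 of 18 alternatives, as was Cgn. Among the alternatives for Tjp1 were a pseudocount of 0.1 (1.56), rescaling each cell to the same total (1.09) and the log2 of the mean FPKM (1.09).

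The genotype values depended on which epithelial cells were compared. Among Aldh1a1-dominant cells Tjp1 averaged 1.89 ± 1.86 in 41 mutant cells and 0.50 ± 0.82 in 14 wild-type cells, a relative difference of 1.74. Its detection was 24 of 41 (58.5%, interval 42.1 to 73.7) against 4 of 14 (28.6%, 8.39 to 58.1). Marveld2 in the same cells averaged 2.46 ± 2.59 against 1.45 ± 2.09, a relative difference of 1.37. These 2 members were called there, beside 18.4% of 6558 compared genes (8.95% higher, 9.48% lower). Among Aldh1a3-dominant cells Cgn was called, at 1.06, with means of 1.33 ± 2.03 in 35 mutant and 0.63 ± 1.13 in 16 wild-type cells, beside 21.6% of 6071 genes (8.60% higher). Lsr (-0.97) and F11r (-0.93) were the lowest members there. Whether the genotype difference itself differed between the 2 kinds of cell was not tested, since each genotype is 1 sample.

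**Figure D3:**
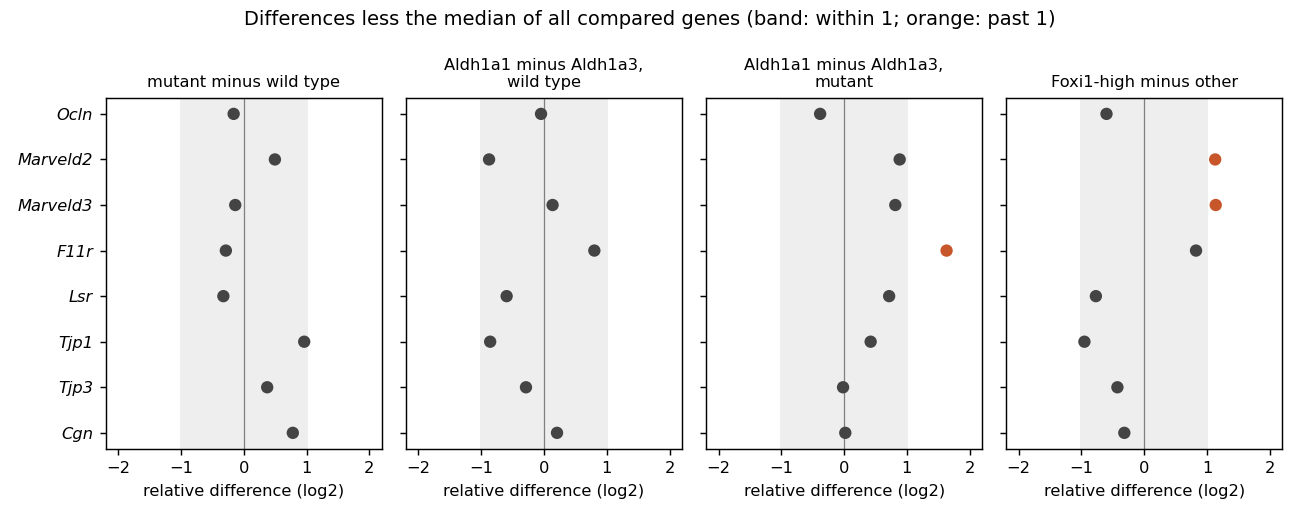
For each of 4 comparisons the relative difference of every junction gene is plotted in log2 units, the difference of mean log2(FPKM + 1) less the median of all compared genes, with a grey band within 1 and orange points past it. By genotype and between the wild-type dominance groups every point lies inside the band, while F11r between the mutant dominance groups and Marveld2 and Marveld3 in Foxi1-high cells lie outside it.

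Beside these values, at least 3 of 8 mesenchymal markers were read in 2 of the 32 and 2 of the 81 cells, with a median summed level of 0 FPKM in both. Hba-a1 and Hba-a2 were detected in 1 wild-type and 2 mutant cells, and 1 of the latter, an Aldh1a3-dominant cell, also held Hbb-bt and Hbb-bs. Without the 4 Y-positive mutant cells the relative difference was 0.89 for Tjp1 and 0.85 for Cgn.

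The second comparison set Aldh1a1-dominant against Aldh1a3-dominant cells within each genotype. In mutant cells F11r was higher in the Aldh1a1-dominant ones, and it was the only member called. There it ranged from 0 to 213 FPKM with a median of 63.1 in 41 Aldh1a1-dominant cells, and from 0 to 208 FPKM with a median of 25.6 in 35 Aldh1a3-dominant cells. The ranges overlapped, with more Aldh1a3-dominant cells at the bottom. Detection was 38 of 41 (92.7%, interval 80.1 to 98.5) against 24 of 35 (68.6%, 50.7 to 83.1). Mean log2(FPKM + 1) was 5.50 ± 1.98 and 3.69 ± 2.72, a relative difference of 1.63, beside 18.3% of 5776 compared genes called (11.3% higher and 6.93% lower in Aldh1a1-dominant cells). The listed genes differed in the same direction, with medians of 4730 and 4268. Among cells with 3000 to 5000 listed genes F11r was detected in 20 of 23 and 21 of 26, and its relative difference was 0.66.

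Other membrane members followed in mutant cells without a call. Marveld2 was detected in 21 of 41 Aldh1a1-dominant cells (51.2%, interval 35.1 to 67.1) and 9 of 35 Aldh1a3-dominant cells (25.7%, 12.5 to 43.3), a relative difference of 0.88. Marveld3 was detected in 17 of 41 (41.5%, 26.3 to 57.9) and 5 of 35 (14.3%, 4.81 to 30.3), a relative difference of 0.82. Lsr stood at 37 of 41 and 26 of 35 cells, a relative difference of 0.72. Ocln differed from these, with detection in 20 of 41 and 20 of 35 cells and a relative difference of -0.38. The scaffolds Tjp1 (0.42), Tjp3 (-0.02) and Cgn (0.02) lay closer to 0 than these membrane genes other than Ocln. The number of members detected was 5 at the median (1 to 7) in Aldh1a1-dominant and 3 (1 to 7) in Aldh1a3-dominant mutant cells, and the median relative difference of the 8 was 0.57.

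In wild-type cells 0 of the 7 members that met the filter (all but Tjp3) were called, beside 29.5% of 6721 genes. F11r was detected in 13 of 14 Aldh1a1-dominant and 15 of 16 Aldh1a3-dominant cells, with means of 5.94 ± 2.04 and 4.98 ± 1.63 and a relative difference of 0.80. The direction was that of the mutant cells, but detection was nearly the same in both groups. Marveld2 went the other way from its mutant value, at 5 of 14 and 8 of 16 cells and a relative difference of -0.87. Tjp1 was at -0.86 and Lsr at -0.59, and both were above 0 in mutant cells. The median number of members was 4 in both wild-type groups, and the median relative difference of the 8 was -0.17. Whether wild-type and mutant differences differed was not tested.

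**Figure D4:**
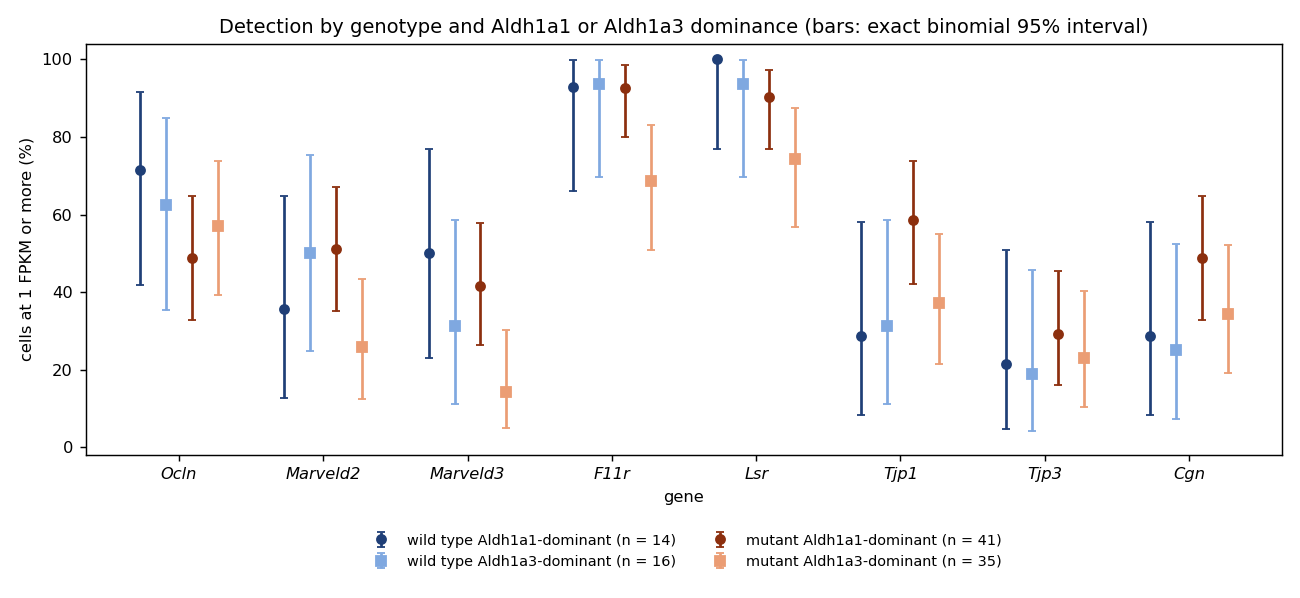
The percentage of cells with each junction gene at 1 FPKM or more is plotted for the 4 groups made by genotype and by Aldh1a1 or Aldh1a3 dominance, with exact binomial 95% intervals as bars. F11r is at 92.7% in mutant Aldh1a1-dominant and 68.6% in mutant Aldh1a3-dominant cells, and lies above 90% in both wild-type groups.

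The third comparison set the 16 Foxi1-high cells against the other 97 epithelial cells. Marveld2 and Marveld3 were higher in Foxi1-high cells, while Tjp1 and Lsr lay lower relative to other genes. Marveld2 ranged from 0 to 102 FPKM with a median of 12.6 in Foxi1-high cells, and from 0 to 180 FPKM with a median of 0 in the others. It was detected in 11 of 16 (68.7%, interval 41.3 to 89) against 33 of 97 (34%, 24.7 to 44.3). Marveld3 ranged from 0 to 93.1 FPKM with a median of 11.2, against 0 to 101 FPKM with a median of 0, and was detected in 10 of 16 (62.5%, 35.4 to 84.8) against 27 of 97 (27.8%, 19.2 to 37.9). Most Foxi1-high cells thus read each gene and most other cells did not. Both were read together in 9 of 16 Foxi1-high cells (56.2%, interval 29.9 to 80.2) and 10 of 97 others (10.3%, 5.06 to 18.1).

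The relative difference was 1.13 for Marveld2, with means of 3.18 ± 2.53 and 1.65 ± 2.41, and 1.14 for Marveld3, with means of 2.82 ± 2.46 and 1.28 ± 2.25. These were the 2 of 8 members called, which is near the share over all 6449 compared genes. Of those, 22.7% were called (13.4% higher, 9.29% lower), and 89.1% and 89.3% stood at or below Marveld2 and Marveld3. The median of 0.40 over all compared genes was subtracted. F11r was at 0.82, with detection in 15 of 16 and 81 of 97 cells. Tjp1 was at -0.95, Lsr at -0.77, Ocln at -0.60, Tjp3 at -0.43 and Cgn at -0.32, and the median of the 8 was -0.37. Because 0.40 was subtracted, a gene with equal means lies below 0 on this scale. Before the subtraction the differences were -0.56 for Tjp1, -0.37 for Lsr, -0.20 for Ocln, -0.03 for Tjp3 and 0.08 for Cgn. Of the 16 cells 14 were Aldh1a1-dominant, so this comparison and the previous one share cells. Within Aldh1a1-dominant cells, 14 against 41, Marveld2 was at 0.99 and Marveld3 at 0.98, just short of the call. Lsr and Tjp1 were past it on the lower side.

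These values moved with the number of listed genes and with mesenchymal markers. Listed genes had a median of 5531 in Foxi1-high and 4615 in other cells. Among cells with 3000 to 5000 listed genes, 5 against 60, Marveld2 was at -0.59 and Marveld3 at -0.72, and each was detected in 1 of those 5 Foxi1-high cells. All 5 were mutant, since the wild-type Foxi1-high cells listed 5520 to 6222 genes, while the 60 others came from both genotypes. At least 3 of 8 mesenchymal markers were detected in 2 of 16 Foxi1-high and 2 of 97 other cells, with summed levels of 0 to 1575 FPKM (median 242) against 0 to 1093 FPKM (median 0). The sum was led by Dcn, detected in 10 of 16 Foxi1-high cells with a median of 237 FPKM, and in 1 of 97 others. Col1a1 reached 1.62 FPKM and Col1a2 7.75 FPKM in Foxi1-high cells, and Col3a1, Pdgfra and Prrx1 were at 0 in all 16. Without the cells with 3 or more such markers Marveld2 was at 0.75 and Marveld3 at 1.18. The part of either in the result was not tested beyond these values.

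Within genotypes the Foxi1-high cells were few. The 5 wild-type ones all detected Ocln, at 25.3, 26.3, 29.2, 30.8 and 94.5 FPKM, and all detected F11r and Lsr. Their Marveld2 values were 0, 1.85, 12.7, 15.7 and 64.4 FPKM, and 3 of the 5 detected Marveld3. One of these cells detected all 8 members, the only cell of the series to do so. Of the 11 mutant Foxi1-high cells 4 detected Ocln (36.4%, interval 10.9 to 69.2), with a range of 0 to 62.6 FPKM, against 39 of 70 other mutant cells (55.7%, 43.3 to 67.6). Of the 27 other wild-type cells 16 detected Ocln (59.3%, 38.8 to 77.6), an interval overlapping that of the 5 Foxi1-high ones (47.8 to 100). Among detecting wild-type cells the median was 29.2 FPKM in Foxi1-high and 38 FPKM in other cells. Ocln thus stood at 1.59 relative to other genes in wild-type and at -1.67 in mutant Foxi1-high cells, past 1 in opposite directions. The wild-type value rested on other cells that did not detect Ocln, and the difference between genotypes was not tested. Marveld2 was at 1.08 (wild type) and 1.09 (mutant), while Marveld3 was at -0.26 and 1.67. Calls numbered 2 of the 7 members that met the filter in wild-type cells (all but Tjp1), beside 35.8% of all genes, and 3 of 8 in mutant cells, beside 27.9%.

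Within epithelial cells the members showed little joint variation. Over the 28 pairs of members the Pearson correlation of log2(FPKM + 1), averaged over the 2 genotypes, had a median of 0.01 (-0.10 to 0.31). Over all 19204503 pairs of compared genes the median was 0.02, with a 5th to 95th percentile range of -0.16 to 0.21. The highest member pairs were Ocln with F11r and Ocln with Tjp1, both at 0.31. In wild-type cells Ocln was at 0.42 with each of them, and in mutant cells at 0.21 with F11r and 0.20 with Tjp1. Ocln and Marveld2, related genes 43238 bases apart on chromosome 13, were at 0.22 over 32 wild-type cells and at -0.29 over 81 mutant cells. They were detected together in 11 of 32 wild-type (34.4%, interval 18.6 to 53.2) and 11 of 81 mutant cells (13.6%, 6.98 to 23), yet 1 or both were detected in 23 of 32 and 63 of 81. Weak correlations in such sparse values, over cells whose depth is unknown, are descriptions only.

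**Figure D5:**
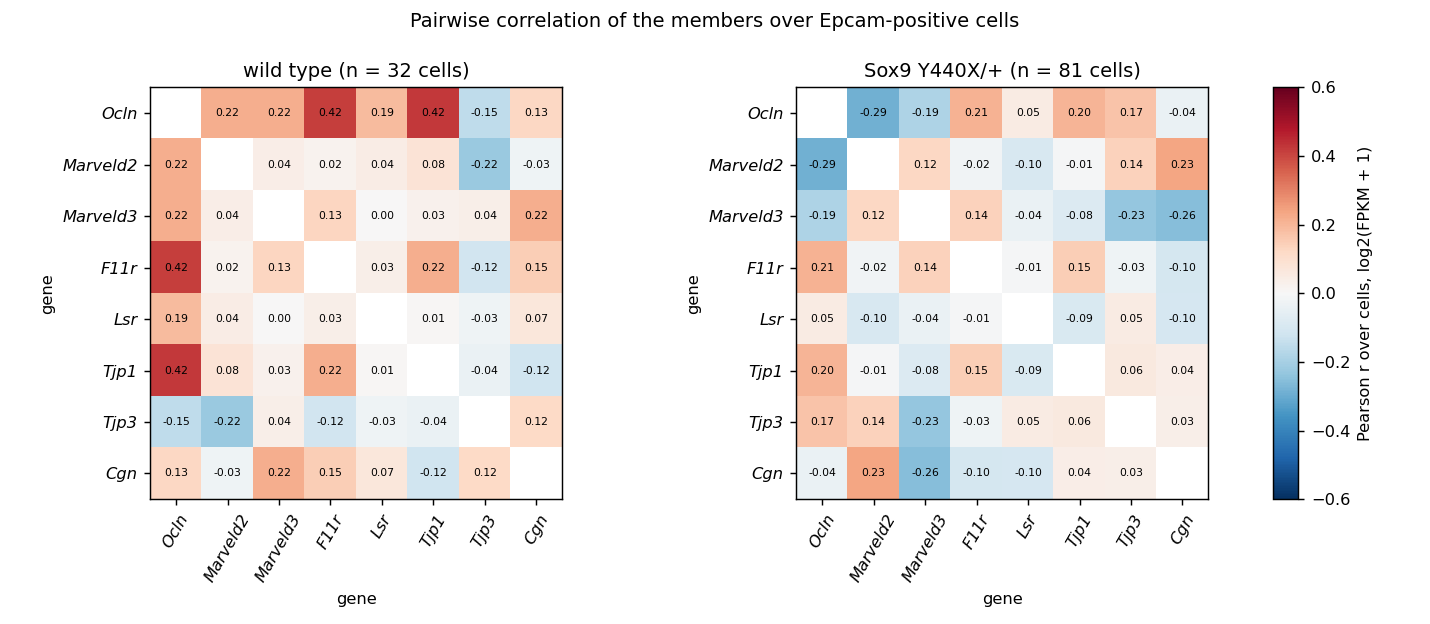
Pearson correlation of log2(FPKM + 1) for every pair of the 8 junction genes is shown by colour and number, over 32 wild-type cells (left) and 81 mutant cells (right). Ocln with F11r and with Tjp1 reaches 0.42 in wild type, and Ocln with Marveld2 is at 0.22 in wild type and -0.29 in mutant.

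Likeness to the members was measured as the Pearson correlation with the mean of Ocln, F11r and Lsr, the 3 members detected in at least 50% of epithelial cells, averaged over genotypes. Among 2629 other genes detected in at least 50% of epithelial cells, Gm4673 came first at 0.48 (0.47 over 32 wild-type cells, 0.48 over 81 mutant cells). It is the gene antisense to Lsr described above. Spint2, which encodes an inhibitor of membrane serine proteases, followed at 0.47 (0.63 and 0.31), and Cystm1 at 0.45 (0.61 and 0.29).

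The rest of the junction gave the setting of these values. Here and in the next paragraph, counts called by genotype stand beside 10.4% of all compared genes (4.08% higher, 6.29% lower). Those of several lists are near these shares. Among 18 claudin genes Cldn3 was detected in 100% of the 113 cells and Cldn4 and Cldn7 in 95.6%, above any of the 8 members. By genotype 8 claudins met the filter, of which 1 was higher in mutant cells, Cldn6 at 3.14, and 0 were lower, with Cldn9 the lowest of them at -0.26 and a median of 0.29 over all 18, the value of a gene listed at 0 in every cell. Cldn10 missed the filter and stood at -1.77, with detection at 37.5% (wild type) and 4.94% (mutant), and is named here after its value was seen. Of 30 genes of the plaque and of cell polarity, Vapa, whose product binds occludin, was detected in 85.8% of cells and Cttn, the cortactin gene, in 80.5%. By genotype 20 met the filter, of which 1 was higher in mutant cells and 2 were lower. The higher gene was Prkci, which encodes the atypical protein kinase C iota of the PAR polarity complex, at 1.21. The lower ones were Prkcz, which encodes its zeta relative, at -1.38 and Vapa at -1.23. The median of the 30 was 0.25.

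Of 9 further membrane proteins only Cxadr, the coxsackievirus and adenovirus receptor, and Ildr1, an angulin, met the filter. Cxadr was detected in 47.8% of cells and was called higher in mutant cells at 1.20, whereas Ildr1 was detected in 27.4% and stood at -0.39, with a median of 0.29 over the 9. Of 11 adherens junction genes 9 met the filter, led by Ctnna1 in 96.5% and Jup in 94.7% of cells, with 1 higher in mutant cells, Cdh2 (N-cadherin) at 1.69, and Ctnnb1 the lowest at -0.22. The median of the 11 was 0.34. Of 16 epithelial transcription factors and their opponents 6 met the filter and 0 were called. Klf5 was detected in 64.6% and Klf4 in 61.1% of cells, and Klf4 was the highest at 0.69 and Klf5 the lowest at -0.42, with a median of 0.26 over the 16. Zeb1, Zeb2 and Snai1, which repress junction genes, were listed at 0 in all 113 cells.

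Between the dominance groups the counts below stand beside 18.3% of all compared genes called in mutant and 29.5% in wild-type cells, and those of several lists are near these shares. In mutant cells 3 of 7 claudins that met the filter were higher in Aldh1a1-dominant cells and 3 were lower, and in wild-type cells 2 of 9 were higher and 4 lower. In the plaque and polarity list 0 of 15 were called in mutant cells, and 2 were higher and 4 lower of 20 in wild-type cells. In the adherens list 1 of 10 was higher and 1 lower in mutant cells and 0 of 9 were called in wild-type cells. Of the further membrane proteins 0 of 1 was called in mutant cells and 1 of 2, Ildr1, was higher in wild-type cells. Of the factors 2 of 5 were higher in mutant and 3 of 6 in wild-type cells, and Elf3 and Klf5 were among them in both genotypes.

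In Foxi1-high cells Cxadr was detected in 93.8% of cells against 40.2% of the others, a relative difference of 2.69, and it was the 1 gene called of the 2 further membrane proteins that met the filter. Over all compared genes 13.4% were called higher and 9.29% lower, and the plaque and polarity count is near the sum of these shares. The level of Cxadr was thus further from that of other cells than the level of any of the 8 members. Of 15 plaque and polarity genes 2 were higher, Amotl2 (1.64), which encodes an angiomotin, and Vapa (1.28), and 1 was lower, Mllt4 (-1.44), which encodes afadin. Of 7 claudins 1 was higher, Cldn8 (1.57), and 2 were lower, Cldn3 (-2.10) and Cldn6 (-1.63). Of 8 adherens junction genes 0 were higher and 3 lower, Cdh2 (-3.34), Cdh1 (-1.39) and Ctnna1 (-1.01). Of 6 factors 1 was higher, Elf3 (2.55).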

How the data were processed

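Complementary DNA of single cells was made by Smart-seq2, which copies full-length transcripts without molecular identifiers, per the labels. The authors deposited 1 table of FPKM values, genes in rows and cells in columns. Tools listed without roles in the submitters' processing notes are Cufflinks, HISAT2, HTSeq and SAMtools 0.1.18, and the build is mm10. The strand setting is not given in the sources used here. Of 48555 rows, the 49 identifiers with several rows were summed, and coordinates are those of the table, counted from 1.

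Each level is a mean log2(FPKM + 1) over cells with its SD, and intervals of shares are exact binomial (Clopper-Pearson) at 95% (Python 3.11.15, numpy 2.4.6, pandas 2.3.3, scipy 1.17.1). The pseudocount of 1 understates differences of low genes. No filter on cells other than Epcam was used and no doublet caller was run. The comparison was run on simulated data in which only widely detected genes were changed, by more than the limit of a call. Scarcer genes were simulated without a change. That run thus does not show whether true changes of scarcer genes, most of the members among them, would be called. The 8 members and the gene lists were chosen with earlier results of these data known. All members were described whatever their values. From each list the rule took the 2 genes detected in most cells and the highest and lowest compared by genotype, and further list genes were named after their values were seen because they were called. Alternatives changed the pseudocount, detection level, gene filter, scaling, cell subsets and dominance margin.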

Additional observations from a re-analysis of the deposited data

How the results depend on the processing

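Cells are the only spread here, depth is unknown and 0 can be a missed transcript, so calls of scarce genes such as Tjp1, Tjp3 and Cgn rest on few cells. No paired analysis was possible because cells carry no shared animal or replicate number and no result comes from a test. Under every alternative run, the median relative difference of the 8 members moved by less than the SD of their own relative differences. The median number of members per cell moved by less than its SD over cells. These margins are wide, and a median that changed sign could stay within them. Before any alternative, 10.4% of all compared genes were called by genotype and 22.7% in the Foxi1 comparison. Between dominance groups the shares were 29.5% in wild-type and 18.3% in mutant cells. These shares were recomputed under each alternative and are not given here, so the counts below cannot be set against them. Counts of called members moved as follows. By genotype, from 0 higher, they became 2 with a pseudocount of 0.1, 2 with the log2 of the mean FPKM, 2 in Aldh1a1-dominant cells alone, and 1 after rescaling cells to 1 total, without Foxi1-high cells or in Aldh1a3-dominant cells alone. Between wild-type dominance groups, from 0, members lower became 2 with a pseudocount of 0.1 or rescaling. They became 1 with a filter of 50% in either group, with 3000 to 5000 listed genes, without cells above 6000 listed genes, without cells with 3 or more mesenchymal markers or without Foxi1-high cells. Members higher there became 1 with 3000 to 5000 listed genes or a 4-fold dominance margin. Between mutant dominance groups, from 1 higher, they became 4 with a pseudocount of 0.1, 3 after rescaling or with the 4-fold margin, 2 with no filter or without Foxi1-high cells, and 0 with a pseudocount of 10 or 3000 to 5000 listed genes. F11r kept its call in 14 of 16 alternatives (0.66 to 2.17). In Foxi1-high cells, from 2 higher, they became 0 with a pseudocount of 10, the 50% filter, 3000 to 5000 listed genes or Aldh1a1-dominant cells alone. They became 1 without the 4 Y-positive mutant cells, where Marveld3 was at 0.998, or without cells with 3 or more mesenchymal markers. With no filter on low values they became 3, as F11r was then called (1.23). Members lower there, from 0, became 2 with a pseudocount of 0.1, rescaling, without cells above 6000 listed genes or in Aldh1a1-dominant cells alone, and 1 with the 50% filter, 3000 to 5000 listed genes, without the Y-positive cells or without the mesenchymal-marker cells. Marveld2 and Marveld3 each kept their call in 11 of 16 alternatives and reversed with 3000 to 5000 listed genes, to -0.59 and -0.72. Only 5 Foxi1-high cells, all mutant, were left there. The cause was not tested. Detection of Tjp1 came to 50% of wild-type and 58% of mutant cells when any value above 0 FPKM counted. The alternatives on mesenchymal markers, Foxi1-high cells within the dominance comparison and Aldh1a1-dominant cells within the Foxi1 comparison were chosen after seeing the data.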
